A study of Homo sapiens with 6 samples.

Results

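The BTG and TOB genes BTG1, BTG2, BTG3, TOB1 and TOB2 were followed in Karpas-45, a human line grown from T-cell acute lymphoblastic leukemia. They were found by matching gene identifiers, without version suffix, to these 5 symbols, which gave 5 of the 78932 identifiers in the count files. All 5 passed the filter on low counts and were among the 17677 genes tested. The set was proposed because BTG3 showed the largest fall among well-expressed genes in the comparison described here. The values of that comparison are therefore given for the 5 genes as a description, without p-values, and support nothing.

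RNA came from cells carrying a hairpin directed at MEF2C, labelled MEF2C KD and shMEF2CKD2, and from scramble control cells, labelled WT. Both groups are labelled untreated leukemic blasts of the line, from bone marrow. The MEF2C hairpin was delivered by a lentivirus made in HEK293T embryonic kidney cells and linked to GFP, and GFP-positive cells were sorted 120 hours after transduction. The vector and the sort of the scramble cells are not described separately. Each group held 3 libraries that the labels call technical replicates, from 1 line and 1 hairpin, so that tests measure only the spread between such replicates. Gene totals ran from 50991704 to 97077335 reads in MEF2C hairpin libraries and from 45560303 to 63228784 reads in scramble libraries. Levels are in CPM, the reads of a gene scaled to the size of its library, with TMM scaling between libraries except for summed marker levels.

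The targeted gene could not check the labels. MEF2C received 2, 0 and 0 reads in MEF2C hairpin replicates 1 to 3 and 2, 1 and 0 reads in scramble replicates 1 to 3, all at or under the detection floor of 3 reads, which corresponds to between 0.0309 and 0.0658 CPM. Of 7 T-cell markers 5 rose, none fell and 2 did not pass, where the test called 13.5% of all tested genes higher and 15.3% lower. Their summed level was 1595 to 1627 CPM in MEF2C hairpin libraries and 1494 to 1528 CPM in scramble libraries. All marker sums given here were scaled to gene totals alone, without TMM. That sets them higher in MEF2C hairpin libraries and lower in scramble libraries than TMM scaling would. The sums therefore do not give the size of a difference between groups. The calls of CD5, CD7 and CD3G held in all 14 alternatives. That of CD3D turned to -0.0014 on the log2 scale when corrected for GC content and length (adjusted p = 0.974). That of CD2 was lost in 6 alternatives, among them leaving out MEF2C hairpin replicate 1 (adjusted p = 0.0843) or 2 (0.277) or scramble replicate 1 (0.0822) or 3 (0.219). Summed B-cell markers lay at 4.09 to 4.22 CPM and 2.99 to 3.54 CPM in these groups, with neither of the 2 tested markers called and with MS4A1 among those too low to test. Summed myeloid markers lay at 1.6 to 2.28 CPM and 1.47 to 1.80 CPM, again with neither of 2 tested markers called and with CSF1R and MPO too low to test. Summed erythroid markers lay at 0.579 to 1.61 CPM and 0.511 to 5.68 CPM, and the 1 tested marker was not called. Embryonic kidney markers summed to 26.4 to 27.6 CPM and 23.6 to 25.3 CPM. Of the 3 tested, GPC3 and PODXL passed as higher and CRABP2 as lower, but each call was lost when single libraries were left out. GPC3 was lost without MEF2C hairpin replicate 2 (adjusted p = 0.189) or 3 (0.0534) or scramble replicate 1 (0.142) or 3 (0.0707). PODXL was lost without MEF2C hairpin replicate 1 (0.0874) or 3 (0.108) or scramble replicate 1 (0.092) or 2 (0.0615), and CRABP2 without MEF2C hairpin replicate 3 (0.0817) or scramble replicate 2 (0.0639) or 3 (0.0889). PAX2 had at most 1 read in any library. Reads aligned to more than 1 place took 16.1% in MEF2C hairpin replicate 3 and between 3.56% and 6.86% in the other libraries. The part of these differences in the values below was not tested.

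Proteins of this family share a conserved domain, the BTG or APRO domain, which binds the deadenylases CNOT7 and CNOT8 of the CCR4-NOT complex. Through them the family shortens poly(A) tails and so hastens the decay of mRNAs, and its members slow entry into the cell cycle. The longer TOB proteins also bind the poly(A)-binding protein PABPC1. In mouse T cells, BTG1 and BTG2 help to keep resting cells quiescent, and BTG1 is deleted or mutated in several human lymphoid malignancies.

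The sequence feature that set BTG3 apart within the family was a repeated 7-base word, TTGAGAA, in its 3' untranslated region (UTR). The word was taken from an earlier analysis of these data, which found it over-represented among genes lower in MEF2C hairpin libraries, so its match to BTG3, and any lower fold changes of genes that hold it, are a description and no independent evidence. The 4 sites in BTG3 and the 1 site in TOB1 are shown with their flanks, 5' to 3' as in the mRNA, with the word in capitals, because no other member's 3' UTR held it.

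BTG3 site 1: ttggtgtcatgTTGAGAAaaaggtagaat
BTG3 site 2: tatagaagttaTTGAGAAtaatctttctt
BTG3 site 3: attgatatagtTTGAGAAattttattaaa
BTG3 site 4: ttctagcacctTTGAGAAtttactttatg
TOB1 site: ttttcacctccTTGAGAAttttttttttt

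In GRCh38 the BTG3 windows lie on the minus strand of chromosome 21, at 17594047 to 17594075, 17593938 to 17593966, 17593887 to 17593915 and 17593759 to 17593787, all in the annotated 3' UTR. The TOB1 window is at chromosome 17, minus strand, 50862896 to 50862924, also in the 3' UTR.

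BTG3, which binds the transcription factor E2F1 and the checkpoint kinase CHEK1 besides the deadenylases, was much lower in the MEF2C hairpin libraries. Its identifier is ENSG00000154640.15, and it spans chromosome 21, 17593653 to 17612947, minus strand (GRCh38). It received 1697, 2628 and 1521 reads in MEF2C hairpin replicates 1 to 3 and 4769, 3231 and 4513 reads in scramble replicates 1 to 3. The level was 28.6, 26.6 and 29.3 CPM in MEF2C hairpin replicates 1 to 3 and 76.5, 72.4 and 75.3 CPM in scramble replicates 1 to 3. The groups did not overlap, and 43.1 CPM separated the highest MEF2C hairpin library from the lowest scramble library. The means were 28.2 ± 1.38 CPM and 74.7 ± 2.08 CPM (SD, n = 3 each). The log2 fold change was -1.41 (SE 0.0403), which is 0.375 times the scramble level.

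The fall in BTG3 is the value that chose the set. Of tested genes with a mean of at least 20 CPM, BTG3 had the lowest log2 fold change, and the next were CCR9 at -1.10, GXYLT1 at -0.74 and PDHX at -0.74. Over all tested genes 22 had a lower log2 fold change than BTG3, and 0.758% had a larger change in either direction.

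BTG1, the family member most often altered in lymphoid malignancy, was modestly lower. Its identifier is ENSG00000133639.6, and it spans chromosome 12, 92140278 to 92145897, minus strand (GRCh38). Its level was 65.4, 60.4 and 61.8 CPM in MEF2C hairpin replicates 1 to 3 and 71.9, 71.6 and 72.6 CPM in scramble replicates 1 to 3. All MEF2C hairpin libraries lay below all scramble libraries, and replicate 2 was the lowest. The means were 62.5 ± 2.57 CPM and 72.0 ± 0.520 CPM (SD, n = 3 each). The log2 fold change was -0.21 (SE 0.0341). Exons of the noncoding genes AC025164.1 and LINC01619 cover 17.1% of its exonic bases. The sources used here do not give whether reads were counted by strand, and without strand the reads of overlapping genes cannot be told apart.

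BTG2, a gene induced by stress signals, differed little between the groups. Its identifier is ENSG00000159388.6, and it spans chromosome 1, 203305491 to 203309602, plus strand (GRCh38). Its level was 31.96, 32.1 and 33.1 CPM in MEF2C hairpin replicates 1 to 3 and 30.4, 30.5 and 30.7 CPM in scramble replicates 1 to 3. The MEF2C hairpin libraries all lay above the scramble libraries, by 1.22 CPM at the closest. The log2 fold change was 0.08 (SE 0.0448), which did not pass the threshold of the test.

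TOB1, which was described as a brake on T-cell activation in human T cells, was the member with a higher level past the threshold. Its identifier is ENSG00000141232.5, and it spans chromosome 17, 50862223 to 50867978, minus strand (GRCh38). Its level was 53.1, 51.4 and 54.2 CPM in MEF2C hairpin replicates 1 to 3 and 43.9, 45.8 and 44.8 CPM in scramble replicates 1 to 3. The groups did not overlap, with 5.51 CPM between the lowest MEF2C hairpin and the highest scramble library. The means were 52.9 ± 1.45 CPM and 44.8 ± 0.974 CPM (SD, n = 3 each). The log2 fold change was 0.24 (SE 0.0382).

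TOB2, the closest relative of TOB1, was the 1 member whose groups overlapped. Its identifier is ENSG00000183864.6, and it spans chromosome 22, 41433492 to 41447023, minus strand (GRCh38). Its level was 36.7, 35.1 and 35.3 CPM in MEF2C hairpin replicates 1 to 3 and 36.2, 37.8 and 38.2 CPM in scramble replicates 1 to 3. MEF2C hairpin replicate 1 lay above scramble replicate 1, and the log2 fold change was -0.07 (SE 0.0430), short of the threshold. Corrected for GC content and length, the log2 fold change of TOB2 was -0.12 and passed. That correction also moved the median over all tested genes from 0.0041 to -0.0316.

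**Figure D1:**
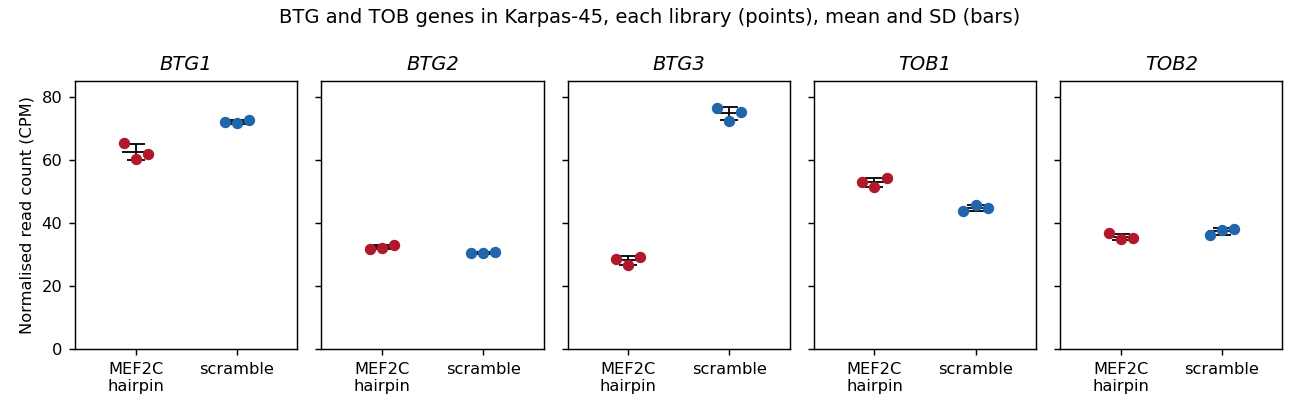
Normalised read count (CPM, linear axis from 0) of the 5 genes in the 3 MEF2C hairpin libraries (red) and the 3 scramble libraries (blue), with 1 point per library and mean ± SD as bars. BTG3 averaged 28.2 CPM in MEF2C hairpin and 74.7 CPM in scramble libraries, and the other members differed by far less.

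The genome-wide test at an adjusted p of 0.05 called 3 of the 5 members, TOB1 as higher and BTG1 and BTG3 as lower. Of all tested genes 28.8% were called, 13.5% as higher and 15.3% as lower. Groups did not overlap for 4 of the 5 members and for 39.9% of all tested genes. Because the set was chosen from this contrast, nothing is read from these counts. The members' median log2 fold change was -0.07, against 0.0041 over all tested genes. Of the 5067 tested genes of 20 to 100 CPM, a range that holds all 5 members, 40.4% were called. Their median absolute log2 fold change was 0.0823, and the middle 90% of them ran from -0.22 to 0.23. BTG1 and BTG2 lay within that range, as did TOB2, TOB1 just above it and BTG3 far below it. The spread between replicates was small: the coefficient of variation of the members ran from 1.91% to 4.91% in MEF2C hairpin libraries and from 0.591% to 2.83% in scramble libraries.

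Levels of different genes were compared per kilobase of exon. In scramble libraries BTG3 stood highest at 32.4 ± 0.903 CPM per kilobase, followed by TOB1 at 17.8 ± 0.385, BTG1 at 14.8 ± 0.108, BTG2 at 11.1 ± 0.0666 and TOB2 at 8.19 ± 0.232 CPM per kilobase (SD, n = 3). No neighbours in that order overlapped between libraries. In MEF2C hairpin libraries TOB1 stood highest at 20.98 ± 0.579 CPM per kilobase and TOB2 lowest at 7.82 ± 0.199 CPM per kilobase. BTG1, BTG3 and BTG2 lay between them at 12.9 ± 0.530, 12.2 ± 0.599 and 11.7 ± 0.226 CPM per kilobase (SD, n = 3), and the libraries of these neighbours overlapped. This order depends on the length used. With 1 transcript per gene, that of the longest coding sequence, the length was 1485 bases for BTG3 in place of its 2306 exonic bases. BTG3 was then second in MEF2C hairpin libraries at 19.0 ± 0.931 CPM per kilobase and still first in scramble libraries at 50.3 ± 1.41 CPM per kilobase.

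**Figure D2:**
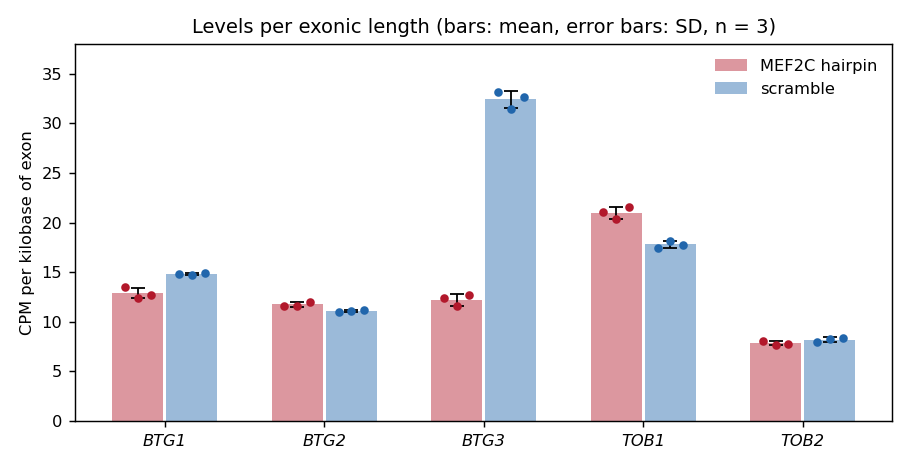
CPM per kilobase of annotated exon for each member, with bars for the mean, error bars for the SD and 1 point per library, in MEF2C hairpin (red) and scramble (blue) libraries. BTG3 was the highest member in scramble libraries at 32.4 CPM per kilobase and lay beside BTG1 and BTG2 in MEF2C hairpin libraries at 12.2 CPM per kilobase.

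The summed level of the 5 genes per kilobase was 65.7 ± 1.71 CPM per kilobase in MEF2C hairpin libraries and 84.3 ± 0.596 CPM per kilobase in scramble libraries (SD, n = 3 each). BTG3 made up 18.6 ± 0.455% of that sum in MEF2C hairpin libraries and 38.4 ± 0.900% in scramble libraries. TOB1 made up 31.96 ± 0.311% and 21.1 ± 0.559% in these groups. Such a share also shifts when another member of the sum changes: TOB1 itself stood at 20.98 and 17.8 CPM per kilobase. In CPM not divided by length, the 5 genes summed to 211.7 ± 5.46 CPM in MEF2C hairpin libraries and 259.6 ± 1.795 CPM in scramble libraries. On that scale the sums without BTG3 were close, at 183.5 ± 4.23 CPM and 184.8 ± 2.12 CPM in these groups (SD, n = 3 each). In bulk RNA, fewer cells with a transcript and less transcript per cell cannot be told apart.

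Antisense and divergent transcripts of the family were rare. BTG3-AS1, which runs on the other strand and overlaps 12.1% of its exonic bases, had 2.34, 2.53 and 2.18 CPM in MEF2C hairpin replicates 1 to 3 and 1.62, 2.13 and 2.25 CPM in scramble replicates 1 to 3. The groups overlapped, and the log2 fold change was 0.24 (SE 0.169, adjusted p = 0.313 by edgeR). TOB1-AS1, which overlaps 11.2% of the exonic bases of TOB1, measured 2.87 ± 0.166 CPM and 2.65 ± 0.402 CPM in MEF2C hairpin and scramble libraries (SD, n = 3 each; edgeR adjusted p = 0.592). BTG1-DT and BTG2-DT stayed under 1 CPM in every library, with edgeR adjusted p-values of 0.912 and 0.418. BTG4, a family member known from oocytes, had 3 reads in MEF2C hairpin replicate 1 and 0 in the other libraries. The pseudogenes BTG1P1, BTG3P1, BTG4P1 and TOB2P1 had 0 reads in all libraries.

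The genes around BTG3 did not share its change. Within 500 kb of BTG3 5 genes were tested, none was called higher and 1 was called lower, and the log2 fold changes ran from -0.08 to 0.51. CXADR, a cell adhesion protein and viral receptor annotated 74 bases from BTG3, had 27.5, 28.4 and 28.7 CPM in MEF2C hairpin replicates 1 to 3 and 28.9, 28.04 and 29.1 CPM in scramble replicates 1 to 3. The gene called lower, C21orf91, had 151.3, 150.2 and 159.4 CPM in MEF2C hairpin replicates 1 to 3 and 164.9, 157.5 and 162.9 CPM in scramble replicates 1 to 3, with overlapping groups (change -0.08 on the log2 scale, SE 0.0261, adjusted p = 0.0236 by edgeR). That call was lost without MEF2C hairpin replicate 1 (adjusted p = 0.0949) or 2 (0.166), without scramble replicate 1 (0.110) or 3 (0.0709), and with upper-quartile scaling (0.0577). Around all 5 members 17 of 64 tested neighbours were called, or 26.6%, against 28.8% of all tested genes, and 11 without MEF2C hairpin replicate 3. Of the 17, 7 stayed called in all alternatives tried, among them ANKRD40, LRRC59 and LUC7L3 near TOB1 and PHF5A, L3MBTL2 and SHISA8 near TOB2, with log2 fold changes of -0.27, -0.11, -0.10, -0.30, -0.11 and 0.53 in that order. The other 10 neighbours called were each lost in at least 1 alternative. Near BTG3 this was C21orf91, and near BTG2 LAX1 and PPFIA4. Near TOB1 they were RSAD1, MYCBPAP and 2 genes without a symbol, and near TOB2 SNU13, CCDC134 and XRCC6.

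The number of TTGAGAA matches in BTG3 was unusual for so short a 3' UTR. The annotated 3' UTR of BTG3 is 440 bases long, against a median of 963 bases over the 11895 3' UTRs of tested genes. Each 3' UTR is that of 1 transcript per gene, the one with the longest coding sequence, which is BTG3-201 for BTG3. Lengths and densities hold for those transcripts only, and other transcripts were not searched. Of these 3' UTRs 17.4% held the word at least once, and 40 held it 4 or more times. The 3' UTR of BTG3 was the shortest of the 40, followed by that of MZT1, a subunit of the gamma-tubulin complex, with 1965 bases. At 9.09 matches per kilobase BTG3 was the densest of the 481 3' UTRs with at least 2 matches. The 3' UTRs of BTG1, BTG2 and TOB2, with 3802, 2164 and 2819 bases, did not hold the word, and that of TOB1, with 757 bases, held it once.

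Over all genes, BTG3 left out, those with the word were lower, which restates how the word was chosen and supports nothing. The values are given to place BTG3 among genes with as many matches. The median log2 fold change was -0.0412 for 1589 genes with 1 match, -0.0405 for 359 genes with 2, -0.08 for 82 genes with 3 and -0.10 for 39 genes with 4 or more, against -4.44e-05 for 9825 genes with no match. The share of genes called lower was 31.5%, 35.1%, 41.5% and 51.3% in the classes with 1, 2, 3 and 4 or more matches, against 18.3% with no match. The classes also differ in 3' UTR length, with medians of 2442, 4346, 6551 and 6458 bases against 744 bases.

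The fold changes of single genes with many matches varied widely. Among the 39 genes with 4 or more matches 20 were called lower and 3 higher, and the log2 fold changes ran from -0.74 in GXYLT1 to 0.80 in SRGAP1, which did not pass the test. MZT1 had a log2 fold change of -0.57. TOB1, with 1 match, was higher in the MEF2C hairpin libraries.

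**Figure D3:**
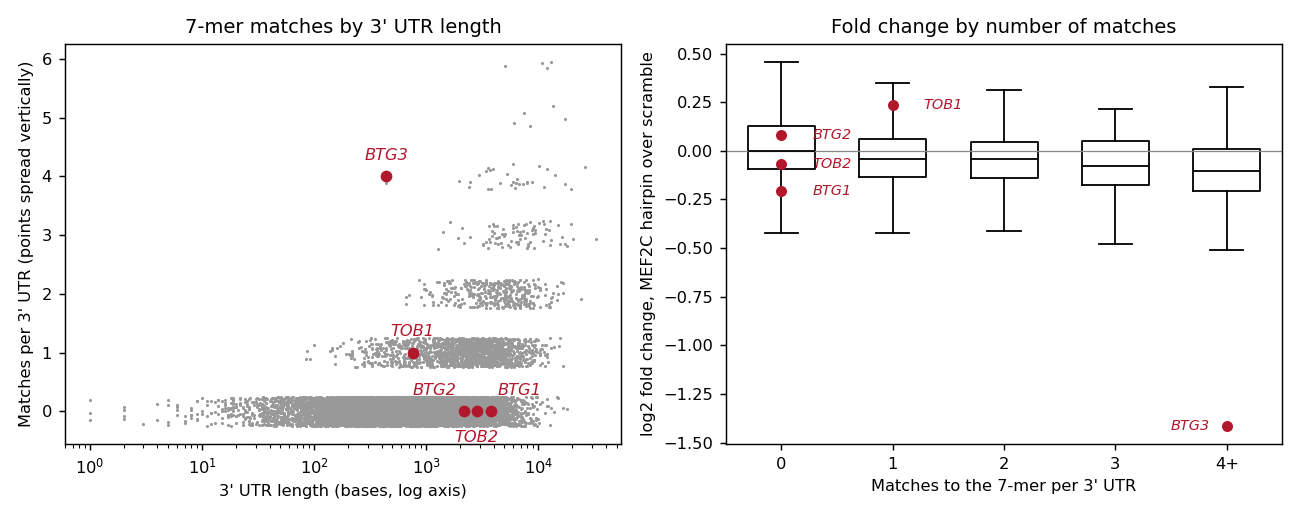
Left, matches to the 7-base word in each annotated 3' UTR of 11895 tested genes against 3' UTR length in bases on a log axis, with the family in red. Right, log2 fold change (MEF2C hairpin over scramble) by number of matches, as boxes from the lower to the upper quartile with a line at the median and whiskers to the farthest gene within 1.5 box lengths, BTG3 left out of the boxes and other outliers not drawn. BTG3 holds 4 matches in 440 bases and lies at -1.41.

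Other words were searched on the sense strand of the 3' UTRs. TGAGAAA, also taken from the earlier analysis, overlaps TTGAGAA by 6 bases and occurred 2 times in BTG3, in both cases as part of a longer TTGAGAAA, once in BTG1, and in 20.4% of all 3' UTRs. GGAATGA, the match to bases 2 to 8 of a guide taken as the reverse complement of the stated hairpin target, occurred once in the family and in 10.3% of all 3' UTRs. That site lies in BTG1, on the minus strand of chromosome 12 in the window 92142993 to 92143021, and is shown with the match in capitals because it is the only one in the family. The study's design gives 1 target sequence and does not tie it to the label shMEF2CKD2, so the search holds for that target only.

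BTG1 site: acatttgatgaGGAATGAagatgctctgt

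TCATTGG, the corresponding match for the opposite strand of the hairpin, occurred in no member and in 8.80% of all 3' UTRs. None of 2545 mature miRNAs of RefSeq (GRCh38.p14) had bases 2 to 8 complementary to TTGAGAA. The word ATTTA, the core of AT-rich elements that mark short-lived mRNAs, occurred in all 5 members, with 5 copies in BTG1, 2 in BTG2, 3 in BTG3, 4 in TOB1 and 3 in TOB2, and in 66.4% of all 3' UTRs.

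The RefSeq promoter windows, 300 bases around each annotated start in GRCh38.p14, held no MEF2 motif on either strand in any member, a motif present in 3.09% of 27305 gene promoters. The BTG3 promoter is shown with copies of GGGCGG or its complement in capitals, because BTG3 carried the largest change.

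BTG3 promoter: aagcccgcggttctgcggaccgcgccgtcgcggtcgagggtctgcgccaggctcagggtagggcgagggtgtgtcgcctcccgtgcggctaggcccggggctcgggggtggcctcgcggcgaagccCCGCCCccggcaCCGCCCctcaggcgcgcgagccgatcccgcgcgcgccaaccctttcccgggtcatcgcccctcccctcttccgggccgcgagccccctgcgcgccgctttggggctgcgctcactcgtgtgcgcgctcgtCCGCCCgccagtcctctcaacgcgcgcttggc

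This window lies on the minus strand at chr21:17612852-17613151. It had 77.3% G and C, against a median of 58.3%, and a ratio of observed to expected CpG of 1.08, against a median of 0.580. It held 3 copies of GGGCGG on either strand, a word found in 44.6% of promoters, and no TATAAA or CCAAT, found on either strand in 12% and 35.7%. TATAAA occurred in the family once, in the promoter of BTG1.

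Genes of the deadenylation machinery that BTG and TOB proteins engage were lower more often than higher, by small amounts. All 17 listed genes were tested, and 8 fell, 3 rose and 6 did not pass, where 15.3% of all tested genes were called lower and 13.5% higher. Call shares differ with level: of the 5067 tested genes of 20 to 100 CPM, 40.4% were called, 1190 as lower and 859 as higher. All listed genes lay above 20 CPM and most of them above 100 CPM, outside that range. The list was not compared with genes of like level. The list median was a log2 fold change of -0.04. PABPC4, a poly(A)-binding protein, fell to 400.7 ± 7.78 CPM in MEF2C hairpin libraries, against 453.6 ± 2.27 CPM in scramble libraries (SD, n = 3 each; change -0.18 on the log2 scale, SE 0.0205, adjusted p = 7.64e-09 by edgeR). CNOT1, the scaffold of the CCR4-NOT complex, and the deadenylase CNOT6 fell by 0.15 and 0.13 on the log2 scale (SE 0.0202 and 0.0238, edgeR adjusted p = 2.99e-07 and 6.89e-05). The number called was 7 in place of 11 without scramble replicate 2.

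The direct partners in that machinery were read after their values were seen. CNOT8 fell to 122.6 ± 1.04 CPM in MEF2C hairpin libraries, against 134.1 ± 0.780 CPM in scramble libraries (SD, n = 3 each; change -0.13 on the log2 scale, SE 0.0250, adjusted p = 8.40e-05 by edgeR). CNOT7 measured 168.3 ± 3.33 and 172.5 ± 7.86 CPM in these groups (SD, n = 3 each; change -0.04 on the log2 scale, SE 0.0269, adjusted p = 0.334 by edgeR). PABPC1 had 1779, 1743 and 1777 CPM in MEF2C hairpin replicates 1 to 3 and 1846, 1842 and 1793 CPM in scramble replicates 1 to 3 (change -0.05 on the log2 scale, SE 0.0179, adjusted p = 0.0373 by edgeR). The call of PABPC1 was lost in 9 of 14 alternatives, among them leaving out any 1 of the MEF2C hairpin replicates (adjusted p = 0.0561, 0.196 and 0.0543 for replicates 1 to 3) or scramble replicate 1 (0.140) or 2 (0.176).

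Reported partners and targets of single members showed small changes. Of 11 listed genes 9 were tested, 2 fell and 1 rose, where 28.8% of all tested genes were called, and 40.4% of those of 20 to 100 CPM. The 3 genes called lay above 100 CPM, outside that range. The list median was a log2 fold change of -0.01. SMAD5 and HOXB9 were listed at 0 reads in all libraries. Whether their RNA was absent or reads were not assigned to these identifiers was not tested. PRMT1, the arginine methyltransferase that BTG1 and BTG2 bind, fell to 198.9 ± 4.05 CPM in MEF2C hairpin libraries, against 222.3 ± 5.22 CPM in scramble libraries (SD, n = 3 each; change -0.16 on the log2 scale, SE 0.0238, adjusted p = 1.23e-06 by edgeR). E2F1, which BTG3 binds, had a log2 fold change of -0.08 (SE 0.0269, adjusted p = 0.0162 by edgeR), a call lost without MEF2C hairpin replicate 2 (adjusted p = 0.101) or 3 (0.0864) or scramble replicate 2 (0.227). SMAD2, a TGF-beta signal transducer, was at 0.07 (SE 0.0274, adjusted p = 0.0370 by edgeR), a call lost without MEF2C hairpin replicate 2 (0.110) or 3 (0.273) or scramble replicate 2 (0.102) or 3 (0.256), and with a replicate block (0.0585) or DESeq2 (0.0681). The partner list had 1 call in place of 3 without MEF2C hairpin replicate 2 or 3 or scramble replicate 2. CHEK1, the other partner of BTG3, measured 113.5 ± 2.15 and 114.3 ± 2.69 CPM in MEF2C hairpin and scramble libraries (SD, n = 3 each; edgeR adjusted p = 0.822).

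Of the genes tied to T-cell quiescence all 9 listed were tested, 4 fell and 1 rose, where 15.3% of all tested genes were called lower and 13.5% higher. At 20 to 100 CPM 40.4% of tested genes were called in either direction, but listed genes lay below, within and above that range. The list median was a log2 fold change of -0.07. FOXO3, a forkhead factor of resting cells, fell to 51.5 ± 0.807 CPM in MEF2C hairpin libraries, against 58.1 ± 1.25 CPM in scramble libraries (SD, n = 3 each; change -0.18 on the log2 scale, SE 0.0359, adjusted p = 0.000199 by edgeR). KLF2, a factor that maintains quiescence in T cells, was at 1.52 ± 0.172 CPM and 2.63 ± 0.373 CPM in these groups (SD, n = 3 each) and fell by 0.77 on the log2 scale (SE 0.175, adjusted p = 0.000650 by edgeR). RBL2, a pocket protein that represses E2F targets, was at -0.08 (SE 0.0252, adjusted p = 0.0120 by edgeR), a call lost without MEF2C hairpin replicate 1 (0.0544) or 3 (0.0624). CDKN1B, an inhibitor of cyclin-dependent kinases, was at -0.07 (SE 0.0273, adjusted p = 0.0402 by edgeR), a call lost in 9 of 14 alternatives, among them leaving out MEF2C hairpin replicate 1 (0.173) or 2 (0.201) or scramble replicate 1 (0.0852) or 2 (0.147). The 1 gene called higher, VSIR, an inhibitory receptor of T cells, measured 0.645 ± 0.0921 and 0.309 ± 0.0898 CPM in MEF2C hairpin and scramble libraries (SD, n = 3 each; adjusted p = 0.0229 by edgeR). Its call was lost without MEF2C hairpin replicate 1 (0.0756) or 2 (0.101) or scramble replicate 1 (0.0973) or 3 (0.0513). The number called in this list was 2 in place of 5 without MEF2C hairpin replicate 1, and 3 without MEF2C hairpin replicate 2 or scramble replicate 1.

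**Figure D4:**
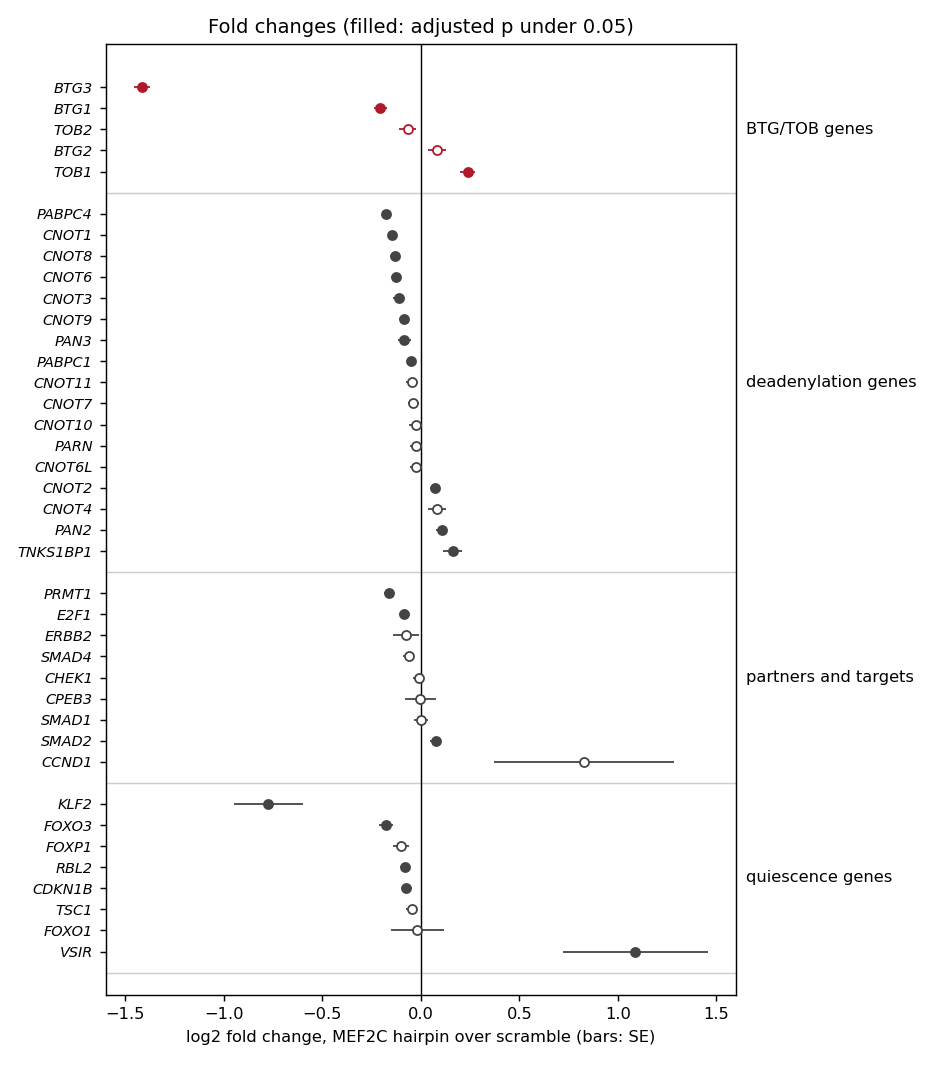
Log2 fold change (MEF2C hairpin over scramble, bars for the SE) of the 5 members in red and of tested genes of the deadenylation, partner and quiescence lists in grey, filled where the adjusted p was under 0.05. BTG3 lies at -1.41, while the deadenylation genes lie between -0.18 and 0.16.

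The genes whose profile over the 6 libraries was nearest to that of a member were found among 9454 other protein-coding genes of at least 5 CPM, by Euclidean distance of centred log2 CPM. Nearest to BTG3 were CCR9, a chemokine receptor of thymocytes, at 0.413, ZFP37 at 0.772 and GXYLT1 at 0.822 log2 units. These lay farther away than the nearest genes of the other members. The distance depends on the size of the change, and BTG3 was chosen for the largest fall among well-expressed genes. That gap therefore follows from the choice and supports nothing. Nearest to BTG1 were MTR at 0.0320, FAM32A and TIMM29, and to BTG2 ZFTA at 0.0211, TMSB4X and PDIA6. Nearest to TOB1 were LRRC45 at 0.0403, the T-lineage factor RUNX3 and EPDR1, and to TOB2, among its 3 nearest, MAX at 0.0228 and SDAD1. These genes were selected for likeness, so their fold changes carry no further test.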

How the data were processed

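RNA was extracted with TRIzol and made into TruSeq libraries, per the labels' protocols. Trim Galore, STAR, HTSeq and hg38 are named in the submitters' processing notes, without versions. The deposited values are the authors' raw read counts per gene, 1 file per library. Summary lines that name no gene, 19.2% to 31.4% of reads, stayed out of library sizes and tests.

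Symbols were matched for 61481 of 78932 identifiers. Positions, exon lengths and 3' UTRs came from GENCODE 29 (GRCh38), which held 90.0% of tested genes, and promoters and miRNAs from RefSeq. filterByExpr (minimum count 10) kept 17677 genes. A quasi-likelihood model with TMM scaling, robust dispersion and group alone was fitted in edgeR 4.0.16 (R 4.3.3), with Benjamini-Hochberg adjustment over all tested genes and a threshold of 0.05. Fold changes set MEF2C hairpin over scramble, and each SE is the size of the log2 change divided by the root of its F statistic. Floors cover counting error only.

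The members, lists and words were chosen with earlier results of these data known. Named genes are the members, the targeted gene, family copies, up to 3 genes per list with the smallest adjusted p, called neighbours within 500 kb and the 3 nearest profiles per member. Marker genes, CNOT7, CNOT8, PABPC1, CHEK1, CDKN1B, VSIR, CXADR, MZT1 and SRGAP1 were named after their values were seen. A few genes that these rules name are not reported here. Between replicates of 1 group chi-square was 3.22 to 4.26 per gene, above the 1 of sampling noise, so none was deposited again. The fit was tested on simulated data. Alternatives were DESeq2 size factors, upper-quartile scaling, no filter, a filter of 1 CPM in 3 libraries, each library left out, a replicate block, DESeq2 1.42.0, voom in limma 3.58.1 and a correction for GC content and length.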

Additional observations from a re-analysis of the deposited data

How the results depend on the processing

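The log2 fold changes of BTG1, BTG3 and TOB1 kept their direction and stayed past the threshold in all 14 alternatives, between -0.24 and -0.18, -1.45 and -1.37, and 0.21 and 0.26. The alternatives reuse the libraries from which the set was chosen through BTG3. They describe dependence on processing only and support nothing about the members. BTG2 ran from 0.03 to 0.09 and passed in none. TOB2 ran from -0.12 to -0.05, passing only with the correction for GC content and length, at -0.12. With that correction the median over all tested genes was -0.0316. Leaving out 1 library, in turn, gave 7 to 9 calls in the deadenylation list, 1 to 3 in the partner list, 2 to 5 in the quiescence list and 11 to 13 among neighbours, against 11, 3, 5 and 17 with all libraries. With at least 1 CPM in 3 libraries the quiescence list had 3 calls. The order of members per length held in 3 of 6 libraries with the length of 1 transcript. The replicate numbers are not stated to pair samples, and deviations of same-numbered libraries correlated at -0.0135, -0.0137 and -0.00314. With the replicate block 3 members were still called. At a few reads, as for MEF2C and BTG4, no difference was detectable at this depth.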
